A study of Homo sapiens with 6 samples.

Results

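The genes described here encode the autophagy machinery and its cargo receptors. A list of 40 gene symbols was matched exactly to the deposited expression table, all 40 were present, and 39 had a mean of at least 1 FPKM (fragments scaled to gene length and library size) over the 6 libraries. These 39 stand among 12020 genes tested in a table of 57688 rows. The member just inside that limit was ATG10 at a mean of 1.01 FPKM, and the one outside it was MAP1LC3A at 0.0342 FPKM.

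The libraries came from WM3248, an established human cell line derived from a primary melanoma; no engineered allele is named for it. The siPGC1a group (n = 3) received an siRNA against PPARGC1A, the gene of the transcriptional coactivator PGC1-alpha, and the siNC group (n = 3) received a commercial negative control siRNA. Both siRNAs were given at 30 nM by lipid transfection, and RNA was collected 48 h later. Each group rests on 1 siRNA product in 1 cell line, so the effect of lost PGC1-alpha and other effects of that siRNA cannot be told apart. The labels do not state whether the 3 libraries of a group are separate cultures; the p-values therefore describe only how these libraries vary, which may be technical.

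Autophagy encloses part of the cytoplasm in a double membrane, the autophagosome, which then fuses with a lysosome. The ULK1 kinase complex starts the process, the class III PI3-kinase complex marks the growing membrane with a phosphoinositide, and lipid carriers and scramblases feed it. A pair of ubiquitin-like conjugation reactions then attaches proteins of the ATG8 family (the LC3 and GABARAP proteins) to the membrane lipid, and receptors such as p62 hold cargo to ATG8. In melanocytes and melanoma cells, transcription factors of the MITF and TFEB family are known to control many lysosomal and autophagy genes. Transcript levels do not measure autophagic flux, and none was measured in these data.

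Facts of the whole series bear on every value below. The steps between low FPKM values gave about 25180000 to 26440000 reads per library, so the measured members rested on roughly 124 reads (ATG10) to 20448 reads (SQSTM1) per library. PPARGC1A stood at 0.4, 0.354 and 0.413 FPKM in siPGC1a libraries, against 0.932, 1.04 and 0.947 FPKM in siNC libraries (limma adjusted p = 0.000234). Melanocyte markers were present at a summed 1600 to 1630 FPKM in siPGC1a and 1630 to 1690 FPKM in siNC libraries, the largest share of it S100B (924 FPKM in siPGC1a and 802 FPKM in siNC libraries, called higher). Of 8 melanocyte markers past the filter 1 was called higher and 4 lower: DCT (ratio 0.643), MLANA (0.547), PMEL (0.714) and MITF (0.762). Among markers of other cell types, PTPRC and KRT1 were at 0 in every library, and KRT5, CD3E and CDH5 were under 0.1 FPKM on average. KRT10 of the keratinocyte list averaged 21.5 FPKM, most of a list sum of 20.7 to 25.9 FPKM in siPGC1a and 20.6 to 21.5 FPKM in siNC libraries, and was not called. Of the immune list, CD14 averaged 0.958 FPKM in siPGC1a and 0.993 FPKM in siNC libraries, and LYZ was lower, at 0.914 FPKM in siPGC1a and 1.73 FPKM in siNC libraries (limma adjusted p = 0.000779). Of 7 fibroblast markers 5 passed the filter, 4 of them lower in siPGC1a and 0 higher, with a sum of 39.2 to 41.4 FPKM in siPGC1a and 47.3 to 47.5 FPKM in siNC libraries. Their part in the results below was not tested, and in bulk RNA fewer cells of a type and less RNA per cell cannot be told apart.

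Autophagy genes moved both ways, and most of them little. By limma on log2(FPKM + 1), with Benjamini-Hochberg adjustment over all genes and a threshold of 0.05, 9 of 39 measured members were higher in siPGC1a (23.1%, against 25.6% of all genes tested), 7 were lower (17.9%, against 22.5%) and 23 did not pass. In either direction 41.0% of members were called, against 48.1% of all genes. The values of the 2 groups did not overlap for 21 members (53.8%), against 57.2% of all genes. The shares are near those of the transcriptome as a whole, so the counts are no result about autophagy genes as a class. The median log2 fold change (siPGC1a minus siNC) was 0.061 over members and 0.007 over all genes, and the median size of change was 0.117 over members and 0.147 over all genes. A small set of individual members had changes well beyond the spread of replicates, from SQSTM1 at a ratio of 1.46 in mean FPKM to ATG4D at 0.683. Over all genes tested such ratios ran from 0.233 to 6.42. At the fold limit set below for giving library values, 7 of 39 members were called in either direction, against 2732 of 12020 genes. Changes of this size are therefore not particular to the members.

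**Figure D1:**
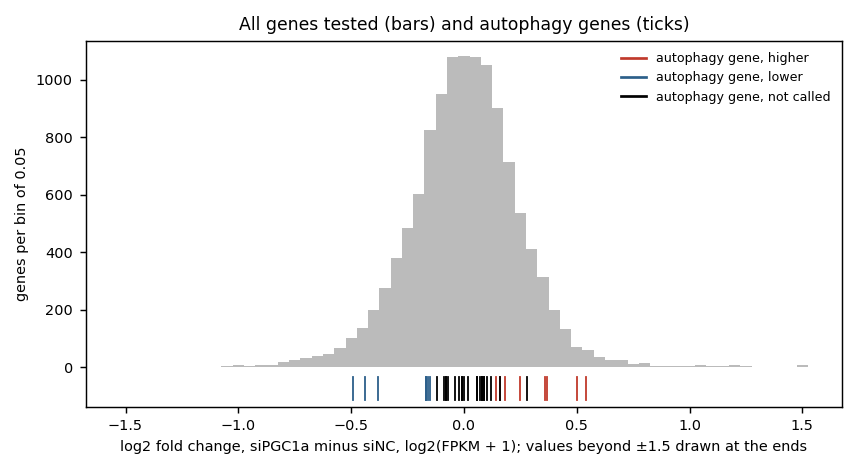
Distribution of log2 fold changes (x axis, siPGC1a minus siNC on log2(FPKM + 1)) for the 12020 genes tested, as bars of genes per bin of 0.05, with the 39 measured autophagy genes as ticks beneath, coloured by call. Most ticks lie in the bulk of the distribution, and the outermost are ATG4D at -0.49 and SQSTM1 at 0.54.

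**Figure D2:**
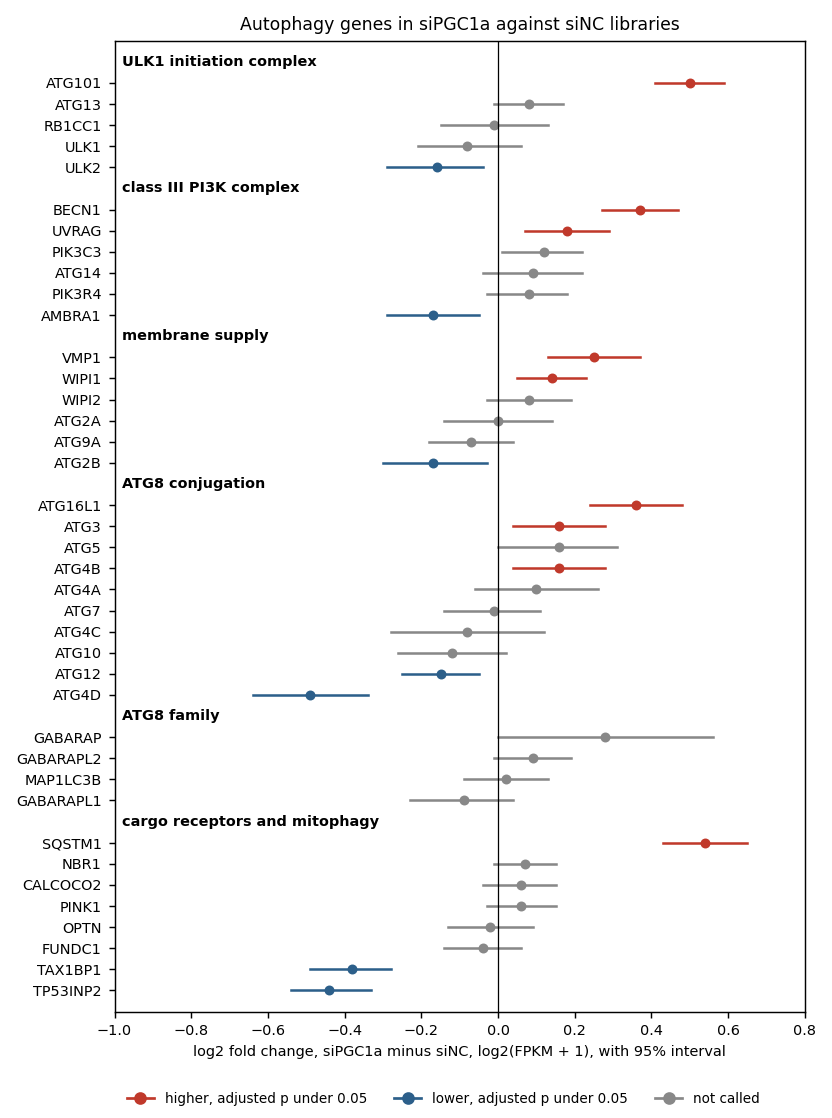
Log2 fold change (x axis, siPGC1a minus siNC on log2(FPKM + 1)) of each measured autophagy gene, grouped by role down the page, with a 95% interval that is not adjusted for the number of genes. Red marks genes called higher, blue those called lower and grey those not called, and every role but the ATG8 family holds calls in both directions.

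Within the ULK1 initiation complex the members parted. ATG101, which binds ATG13 and stabilises the complex, rose 1.43-fold. Its level was 32.6, 34.1 and 34.5 FPKM in siPGC1a libraries, against 23.4, 24.3 and 23.1 FPKM in siNC libraries, so every siPGC1a library lay above every siNC library by a wide gap. The log2 fold change was 0.50 (SE 0.0411, limma adjusted p = 1.76e-05), the smallest adjusted p of any member. AC025259.1, on the other strand, covers 19.2% of the exon bases of ATG101, at a mean of 0.03 FPKM. The value of ATG101 is therefore uncertain while the strand setting of read counting is not known. ULK2, the less abundant of the 2 kinases in these cells, was at 1.475, 1.425 and 1.413 FPKM in siPGC1a and 1.629, 1.802 and 1.769 FPKM in siNC libraries, a ratio of 0.829 (limma adjusted p = 0.0371). The groups did not overlap, but the call depended on single libraries and on scaling. Among other settings, it was lost without siPGC1a replicate 1 (limma adjusted p = 0.0609), 2 (0.0799) or 3 (0.0826), without siNC replicate 2 (0.115) or 3 (0.111), with no filter (0.0966), and under median-of-ratios (0.0517) or quantile scaling (0.144), in a range of 0.0309 to 0.144 over settings. ULK1 itself averaged 6.47 ± 0.524 FPKM in siPGC1a and 6.88 ± 0.302 FPKM in siNC libraries (SD, n = 3 each) and did not pass, with a 95% interval of -0.21 to 0.06 on the log2 scale. ATG13 (-0.01 to 0.17) and RB1CC1, the FIP200 scaffold (-0.15 to 0.13), did not pass either.

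Of the class III PI3-kinase genes, BECN1 and UVRAG rose and AMBRA1 fell. BECN1 encodes Beclin 1, the regulatory subunit around which the complexes assemble. It was at 19.6, 18.7 and 19.2 FPKM in siPGC1a and 14.6, 13.9 and 15.2 FPKM in siNC libraries, with no overlap and a ratio of 1.32 (log2 fold change 0.37, SE 0.0446, limma adjusted p = 0.000142). On the other strand CNTD1 covers 12.4% of its exon bases, at a mean of 0.289 FPKM. PSME3 covers 4.7%, at 38.3 FPKM (log2 fold change -0.02, limma adjusted p = 0.727). The value of BECN1 is therefore uncertain while the strand setting is not known. UVRAG, the subunit of the Beclin 1 complex found at endosomes, stood at 5.01, 4.61 and 4.64 FPKM in siPGC1a and 4.20, 3.97 and 4.03 FPKM in siNC libraries. That is a ratio of 1.17 with no overlap (limma adjusted p = 0.0125). ATG14, which takes the place of UVRAG in the complex that starts autophagosomes, averaged 6.21 ± 0.281 and 5.78 ± 0.441 FPKM in siPGC1a and siNC libraries (SD, n = 3 each), overlapped between groups and did not pass (interval -0.04 to 0.22).

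The catalytic subunit PIK3C3 did not overlap between groups, at 5.76 ± 0.189 FPKM in siPGC1a and 5.24 ± 0.161 FPKM in siNC libraries (SD, n = 3 each), but missed the threshold (limma adjusted p = 0.0628) and was called only under median-of-ratios (0.0355) and quantile scaling (0.0389), in a range of 0.0355 to 0.182. PIK3R4, the VPS15 subunit, gave an interval of -0.03 to 0.18. AMBRA1, a large scaffold that binds Beclin 1 and several ubiquitin ligases, was the member of this group that was lower. It measured 6.12, 6.16 and 5.415 FPKM in siPGC1a and 6.71, 6.81 and 6.695 FPKM in siNC libraries, and siPGC1a replicate 3 was the lowest of the 6. Its ratio was 0.876 (limma adjusted p = 0.0258). That call was lost without siPGC1a replicate 3 (limma adjusted p = 0.0691), without siNC replicate 1 (0.0535), 2 (0.0706) or 3 (0.0664), and with no filter (0.0799), in a range of 0.0199 to 0.0799 over settings.

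Among genes that supply membrane, VMP1, a scramblase of the endoplasmic reticulum, rose by 0.25 on the log2 scale. It stood at 23.6, 22.8 and 26.2 FPKM in siPGC1a and 20.9, 19.9 and 19.8 FPKM in siNC libraries, without overlap (SE 0.0543, limma adjusted p = 0.00422). PTRH2, which covers 2.3% of the exon bases of VMP1 on the other strand, was also higher (log2 fold change 0.30, limma adjusted p = 0.000346). WIPI1, a reader of the phosphoinositide made by the PI3-kinase, was at 14.555, 15.3 and 14.9 FPKM in siPGC1a and 13.1, 13.4 and 13.8 FPKM in siNC libraries. The groups did not overlap and the ratio was 1.11 (limma adjusted p = 0.0184), but the call was lost without siPGC1a replicate 2 (limma adjusted p = 0.0571), without siNC replicate 1 (0.0623) or 2 (0.0516), and under quantile scaling (0.0828), in a range of 0.0114 to 0.0828 over settings. ARSG, on the other strand, covers 24.3% of the exon bases of WIPI1, at a mean of 0.343 FPKM, so its value is uncertain while the strand setting is not known. ATG2B, a lipid transfer protein that bridges the endoplasmic reticulum and the growing membrane, averaged 6.77 ± 0.582 FPKM in siPGC1a and 7.70 ± 0.342 FPKM in siNC libraries (SD, n = 3 each). Its groups overlapped, and it passed narrowly (ratio 0.879, limma adjusted p = 0.0454). The call was lost without siPGC1a replicate 2 (limma adjusted p = 0.13) or 3 (0.118), without siNC replicate 1 (0.13) or 3 (0.106), with no filter (0.149) and under median-of-ratios scaling (0.065), in a range of 0.0109 to 0.149. Its paralog ATG2A averaged 4.26 FPKM in either group (interval -0.14 to 0.14). WIPI2 (-0.03 to 0.19) and ATG9A, the transmembrane scramblase of autophagy vesicles (-0.18 to 0.04), did not pass. AC068946.2 shares 38.8% of the exon bases of ATG9A on the same strand, at a mean of 0.038 FPKM, so the level of ATG9A is uncertain.

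The conjugation enzymes gave ratios of 0.683 to 1.32, with 3 genes higher, 2 lower and 5 that did not pass. Of all genes tested, 25.6% were called higher and 22.5% lower, so this mix of calls is no result about the enzymes as a group. ATG16L1, which joins the ATG12-ATG5 conjugate to form the ligase that places ATG8 proteins on lipid, rose. Its level was 11.044, 11.514 and 11.716 FPKM in siPGC1a and 9.36, 8.26 and 8.39 FPKM in siNC libraries, without overlap, at a ratio of 1.32 (log2 fold change 0.36, SE 0.0529, limma adjusted p = 0.000453). ATG12, the ubiquitin-like partner in that ligase, was lower, at 4.15, 4.21 and 4.20 FPKM in siPGC1a and 4.85, 4.56 and 4.85 FPKM in siNC libraries. The ratio was 0.881 without overlap (limma adjusted p = 0.0233), and the call was lost without siPGC1a replicate 1 (limma adjusted p = 0.059) and without siNC replicate 1 (0.0736) or 3 (0.0922), in a range of 0.0162 to 0.0922. ATG5, the other part of the conjugate, averaged 6.36 ± 0.6 and 5.60 ± 0.43 FPKM in siPGC1a and siNC libraries (SD, n = 3 each), overlapped, and did not pass (limma adjusted p = 0.0837), although it passed without siNC replicate 1 (0.0358), in a range of 0.0358 to 0.259. The 3 components of 1 ligase thus gave 1 rise, 1 fall and 1 value that did not pass. With calls this common among all genes, that mix is no result about the ligase.

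The ATG4 proteases trim ATG8 proteins before conjugation and release them afterwards, and the 4 genes did not move together. ATG4D had the lowest ratio of any member, 0.683. It was at 6.63, 7.22 and 7.03 FPKM in siPGC1a and 9.08, 10.9 and 10.5 FPKM in siNC libraries, with siNC replicate 1 lowest of its group but still above every siPGC1a library (log2 fold change -0.49, SE 0.0655, limma adjusted p = 0.000279). KRI1, on the other strand, shares 15.0% of the exon bases of ATG4D and went the opposite way (log2 fold change 0.28, limma adjusted p = 0.000593), so the value of ATG4D is uncertain while the strand setting is not known. ATG4B was at 11.5, 12.8 and 12.0 FPKM in siPGC1a and 10.5, 11.3 and 10.4 FPKM in siNC libraries, a ratio of 1.13 (limma adjusted p = 0.0302). Its call was lost without siPGC1a replicate 2 (limma adjusted p = 0.0963), without siNC replicate 1 (0.083) or 3 (0.112), with no filter (0.0938) and under quantile scaling (0.0796), in a range of 0.0133 to 0.112. ATG4A (interval -0.06 to 0.26) and ATG4C (-0.28 to 0.12) did not pass.

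Of the remaining enzymes, ATG3, the E2-like enzyme that carries ATG8 proteins, averaged 6.41 ± 0.452 FPKM in siPGC1a and 5.64 ± 0.194 FPKM in siNC libraries (SD, n = 3 each), a ratio of 1.14 (limma adjusted p = 0.0378). That call ended without siPGC1a replicate 2 (limma adjusted p = 0.0862) or 3 (0.114), without siNC replicate 1 (0.11), 2 (0.0529) or 3 (0.0871), with no filter (0.113) and on the TPM scale (0.0536), in a range of 0.0142 to 0.114. ATG7, the E1-like enzyme for both conjugation reactions, averaged 2.42 ± 0.0655 and 2.46 ± 0.154 FPKM in siPGC1a and siNC libraries (n = 3 each), within an interval of -0.14 to 0.11. VGLL4, on the other strand, covers 18.1% of the exon bases of ATG7 and stood at 13.3 FPKM (log2 fold change -0.02, limma adjusted p = 0.656). The value of ATG7 is therefore uncertain while the strand setting is not known. ATG10, the E2-like enzyme for ATG12, averaged 0.926 ± 0.0446 and 1.09 ± 0.0469 FPKM (n = 3 each) without overlap but did not pass (limma adjusted p = 0.133). It rests on 124 to 165 reads per library, and 6.9% of its exon bases lie opposite RPS23, an abundant ribosomal protein gene at 118.4 FPKM.

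**Figure D3:**
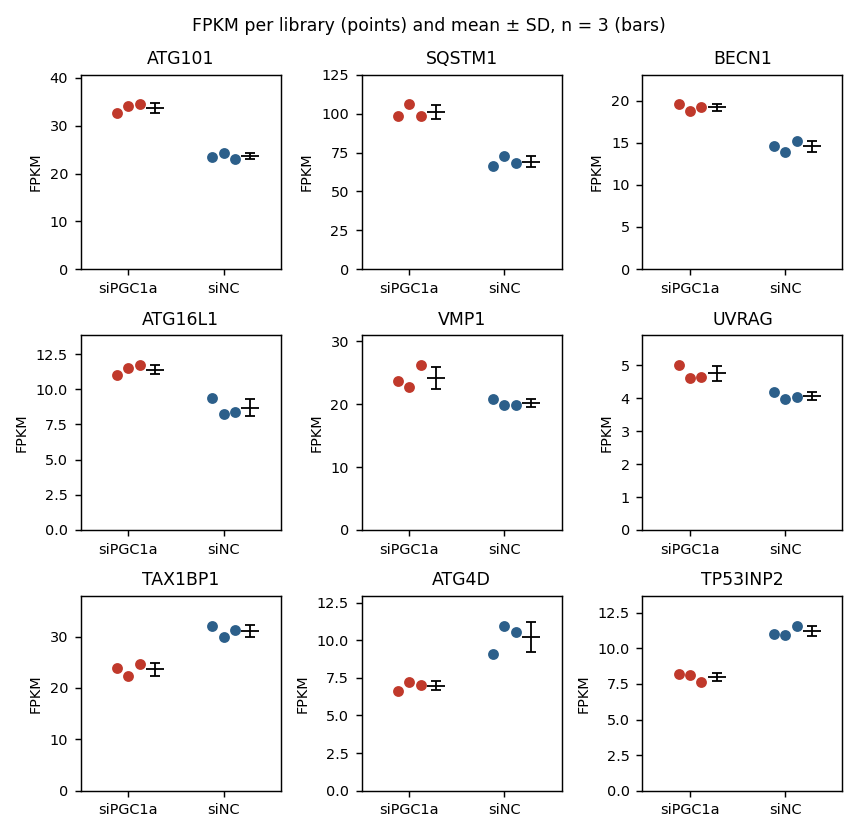
FPKM in each library (y axis from 0, points) for the 9 autophagy genes whose call held in every alternative that tested them, with the mean ± SD of each group (n = 3) beside the points and siPGC1a left of siNC. ATG101, SQSTM1, BECN1, ATG16L1, VMP1 and UVRAG are higher in all siPGC1a libraries, and TAX1BP1, ATG4D and TP53INP2 are lower in all of them.

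No ATG8 family member passed the test. GABARAPL2 was the most abundant, at 40.8, 40.8 and 44.2 FPKM in siPGC1a and 38.7, 40.2 and 39.1 FPKM in siNC libraries, with no overlap but a small difference (ratio 1.07, limma adjusted p = 0.116). MAP1LC3B, the LC3 gene used most widely as an autophagosome marker at the protein level, was at 16.2, 15.7 and 16.9 FPKM in siPGC1a and 16.8, 15.4 and 16.0 FPKM in siNC libraries, fully overlapping (interval -0.09 to 0.13). GABARAPL1 was at 10.4, 11.3 and 12.4 FPKM in siPGC1a and 11.7, 12.4 and 12.4 FPKM in siNC libraries and did not pass (limma adjusted p = 0.232), although it was called lower without siPGC1a replicate 3 (0.0398), in a range of 0.0398 to 0.642. Of the family members past the filter, GABARAP varied most between replicates relative to its level. It was at 5.535, 8.04 and 7.91 FPKM in siPGC1a and 6.65, 5.11 and 5.29 FPKM in siNC libraries, so that replicate 1 of siPGC1a lay below replicate 1 of siNC while the other 2 siPGC1a libraries lay above all siNC libraries. It did not pass (limma adjusted p = 0.0911), and was called higher without siPGC1a replicate 1 (0.00737) or without siNC replicate 1 (0.0307), in a range of 0.00737 to 0.315. MAP1LC3A was at 0, 0.034 and 0 FPKM in siPGC1a and 0, 0.068 and 0.103 FPKM in siNC libraries, at most about 5 reads, which is too few to compare. Near-identical copies make 2 of these values uncertain: MAP1LC3B2, a close copy of MAP1LC3B, was listed at a mean of 0.386 FPKM and GABARAPL3, a copy of GABARAPL1, at 0.0187 FPKM. The level of GABARAP is uncertain because of overlapping genes. AC120057.2 shares 30.5% of its exon bases on the same strand and AC120057.3 25.2% on the other, at means of 0.0 and 0.06 FPKM.

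FPKM is a level per length, so members of the family can be added within a library. Summed over the 5 genes, ATG8 transcripts came to 72.9, 75.8 and 81.5 FPKM in siPGC1a and 73.8, 73.1 and 72.8 FPKM in siNC libraries. The groups overlapped, and the difference was within the spread of the siPGC1a libraries (76.7 ± 4.33 against 73.3 ± 0.522 FPKM, SD, n = 3 each, exact two-sided permutation p = 0.3, where 3 against 3 cannot go below 0.1). GABARAP, GABARAPL1 and GABARAPL2 together made up 77.7, 79.2 and 79.2% of the family sum in siPGC1a and 77.2, 78.9 and 77.9% in siNC libraries (exact two-sided permutation p = 0.3, n = 3 each). Neither the total of ATG8 transcripts nor the balance of its 2 subfamilies was therefore separable between the groups in these 6 libraries. The sum and the shares carry the doubt about the level of GABARAP.

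Cargo receptors held the largest rise of any member, and falls as well. SQSTM1 encodes p62, which binds ubiquitinated cargo and ATG8 proteins and also the NRF2 repressor KEAP1, and it was the most abundant member at a level above that of 96.6% of all genes tested. It was at 98.3, 106.1 and 98.8 FPKM in siPGC1a and 66.6, 73.0 and 68.0 FPKM in siNC libraries, so the groups were far apart. It rose 1.46-fold (log2 fold change 0.54, SE 0.0472, limma adjusted p = 2.41e-05). Exons of MRNIP on the other strand cover 20.7% of its exon bases, so the strand setting bears on this value too. MRNIP stood at 1.42 FPKM, far below SQSTM1, and was not called (log2 fold change 0.05, limma adjusted p = 0.541). TAX1BP1, a receptor that also takes ubiquitinated cargo, fell. It was at 23.8, 22.2 and 24.7 FPKM in siPGC1a and 32.1, 29.9 and 31.2 FPKM in siNC libraries, without overlap, at a ratio of 0.759 (log2 fold change -0.38, SE 0.0484, limma adjusted p = 0.000194).

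The other 3 ubiquitin-binding receptors did not pass. NBR1, which assembles with p62, averaged 32.6 ± 0.646 FPKM in siPGC1a and 30.9 ± 0.0379 FPKM in siNC libraries (SD, n = 3 each), without overlap (interval -0.01 to 0.15). CALCOCO2, known as NDP52, averaged 12.5 ± 0.341 and 12.0 ± 0.266 FPKM, and OPTN, optineurin, averaged 9.78 ± 0.515 and 9.92 ± 0.324 FPKM in siPGC1a and siNC libraries (n = 3 each), both overlapping. TP53INP2, a scaffold that brings nuclear LC3 to autophagosomes, fell. It stood at 8.21, 8.11 and 7.645 FPKM in siPGC1a and 11.005, 10.912 and 11.572 FPKM in siNC libraries, a ratio of 0.716 without overlap (log2 fold change -0.44, SE 0.0458, limma adjusted p = 6.92e-05). The 2 mitophagy members did not pass. PINK1, the kinase that marks damaged mitochondria, averaged 19.5 ± 0.206 and 18.7 ± 0.486 FPKM in siPGC1a and siNC libraries (n = 3 each, interval -0.03 to 0.15), and FUNDC1, a receptor of the outer mitochondrial membrane, 16.4 ± 0.639 and 16.9 ± 0.425 FPKM (n = 3 each, interval -0.14 to 0.06). PINK1-AS covers 39.4% of the exon bases of PINK1 on the other strand and was itself lower in siPGC1a (log2 fold change -0.41, limma adjusted p = 0.000139), so the value of PINK1 is uncertain where the strand setting is not known.

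The make-up of the receptor pool followed from these values and was looked at after they were seen. The 5 ubiquitin-binding receptors SQSTM1, NBR1, TAX1BP1, CALCOCO2 and OPTN summed to 177, 183 and 179 FPKM in siPGC1a and 152, 156 and 152 FPKM in siNC libraries. SQSTM1 made up 55.6, 58.0 and 55.3% of that sum in siPGC1a and 43.8, 46.9 and 44.9% in siNC libraries, while TAX1BP1 made up 13.5, 12.2 and 13.8% in siPGC1a and 21.1, 19.2 and 20.6% in siNC libraries. There were 4.13, 4.77 and 4.00 SQSTM1 transcripts per TAX1BP1 transcript in siPGC1a and 2.08, 2.44 and 2.18 in siNC libraries, on the FPKM scale. In order of level the members ran SQSTM1, GABARAPL2, ATG101, NBR1, VMP1 and TAX1BP1 in siPGC1a libraries, and SQSTM1, GABARAPL2, TAX1BP1, NBR1, ATG101 and VMP1 in siNC libraries. ATG101 and NBR1 overlapped in siPGC1a libraries, as did VMP1 and TAX1BP1, and TAX1BP1 and NBR1 overlapped in siNC libraries, so these neighbours are not separated in order.

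**Figure D4:**
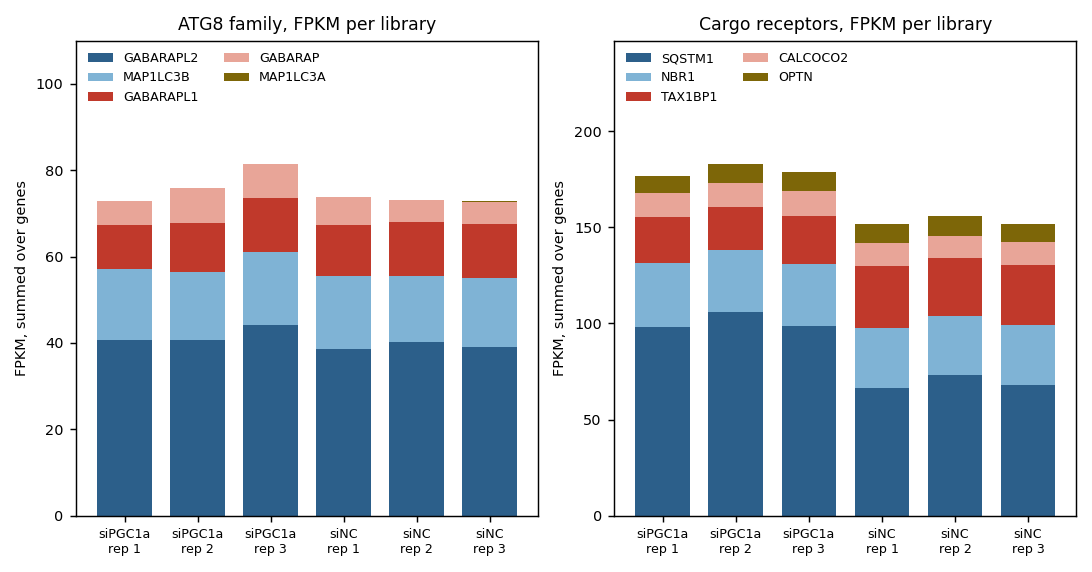
Stacked FPKM per library (y axis from 0) of the 5 ATG8 family genes (left) and of 5 ubiquitin-binding cargo receptors (right), with siPGC1a libraries left of siNC libraries. The ATG8 totals overlap between groups at 72.9 to 81.5 FPKM in siPGC1a and 72.8 to 73.8 FPKM in siNC libraries, while the SQSTM1 segment is taller and the TAX1BP1 segment shorter in every siPGC1a library.

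The 3' UTRs of the members were searched for short words named before. An earlier account of these same data named the 6-base word ACACCT as frequent in 3' UTRs of lower genes, so the counts here are a description and not independent support. The word stood in the annotated 3' UTR of 5 of the 7 members that were lower (71.4%), 3 of the 9 that were higher (33.3%) and 5 of the 23 not called (21.7%), against 44.9, 20.4 and 29.1% of all lower, higher and uncalled genes searched. The 5 were ATG12, ATG2B, ATG4D, TAX1BP1 and ULK2, and the word was in neither AMBRA1 nor TP53INP2. Of these 5, the calls of ATG12, ATG2B and ULK2 were lost in some settings, and ATG4D is uncertain while the strand setting is not known. Over all 39 measured members 33.3% held the word, against 30.2% of all genes searched, so the word was not particular to the members. The 3 higher members with it were ATG16L1, ATG4B and WIPI1. The median 3' UTR searched was 2399 bases among the lower members and 1181 among the higher ones, and a longer UTR holds any word more often, so its part in these counts was not tested. A second word of that account, GTCTTC, was in 4 of the 7 lower members, among them AMBRA1 and TP53INP2, in 1 of the 9 higher members (SQSTM1) and in 8 of the 23 not called (34.8%), against 38.9, 24.5 and 31.2% of all lower, higher and uncalled genes searched. No match to the siRNA was made, since its sequence was not at hand. Sites of the 5 lower members are shown, with 2 of the 3 in ATG12, because they are the letters those counts rest on. Each is 30 bases of the sense strand of a GENCODE v29 transcript, with the word in capitals and coordinates on GRCh38, a newer build than the hg19 build of the expression table.
TAX1BP1, chr7:27828872-27828901, plus strand: aaaaaaaaaaccACACCTaaaatagaccac
ATG4D, chr19:10553229-10553258, plus strand: cacagagcccatACACCTgtctcccaccag
ULK2 site 1, chr17:19775542-19775571, minus strand: acttctttatctACACCTacagattttctc
ULK2 site 2, chr17:19774068-19774097, minus strand: attcatgggttgACACCTgtattcaagcca
ATG12 site 1, chr5:115828968-115828997, minus strand: tgcagtttacttACACCTtcaccctttcaa
ATG12 site 2, chr5:115828469-115828498, minus strand: acaaaacatgaaACACCTtgaaccccattg
ATG2B, chr14:96280976-96281005, minus strand: cttgcagcaaacACACCTcctagtttgata

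The letters beside the word differ among the sites shown.

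Promoters were searched for the E-box CACGTG and for TCACGTGA, the core of the element through which TFEB and MITF are known to bind lysosomal and autophagy genes. Both words read the same on either strand, and the longer one contains the shorter. In RefSeq promoters (GRCh38.p14, 250 bases before to 50 after the start), 35 of the 39 measured members had a sequence. CACGTG was in 2 of them (5.71%), ATG3 and ATG14, against 10.4% of the promoters of tested genes and 7.43% of all RefSeq promoters. TCACGTGA was in 1 (2.86%), ATG3, against 2.02 and 1.04%. The windows are shown because they are the only such matches among the members, with the E-box in capitals.
ATG3 upstream, chr3:112561958-112561997, minus strand: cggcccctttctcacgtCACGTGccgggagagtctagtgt
ATG3 downstream, chr3:112561935-112561974, minus strand: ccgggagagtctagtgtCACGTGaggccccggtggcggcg
ATG14, chr14:55411829-55411868, minus strand: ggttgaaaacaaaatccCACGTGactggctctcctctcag

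Other genes of the pathway, from 5 lists, also moved both ways. Of 97 measured genes on 107 listed symbols, 18 rose (18.6%, against 25.6% of all genes tested), 20 fell (20.6%, against 22.5%) and 59 did not pass, with a median log2 fold change of 0.016. These shares are near or below those of all genes, and the counts per list that follow are read against the same 25.6 and 22.5%. Among other core autophagy genes 4 rose, 1 fell and 10 did not pass. EI24 (76.9 ± 2.71 FPKM in siPGC1a and 60.4 ± 0.481 FPKM in siNC libraries), TECPR2 (9.90 ± 0.525 and 7.37 ± 0.728 FPKM) and TBK1, the kinase that phosphorylates OPTN and p62 (8.10 ± 0.633 and 6.33 ± 0.544 FPKM), were higher (SD, n = 3 each, limma adjusted p = 9.94e-05, 0.00117 and 0.00426). TMEM41B, the scramblase that works with VMP1, fell to 4.87 ± 0.22 FPKM in siPGC1a, against 8.0 ± 0.606 FPKM in siNC libraries (SD, n = 3 each, ratio 0.609, limma adjusted p = 3.7e-05), while VMP1 was higher.

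Among other receptors and mitophagy genes 3 rose, 6 fell and 18 did not pass. BNIP3 and its homologue BNIP3L, hypoxia-induced receptors of the mitochondrial membrane, fell to 12.2 ± 0.653 and 30.0 ± 1.62 FPKM in siPGC1a, against 16.5 ± 0.523 and 40.2 ± 1.45 FPKM in siNC libraries (SD, n = 3 each, limma adjusted p = 0.000131 and 0.000135). USP30, a deubiquitinase that opposes mitophagy, fell as well (ratio 0.688, limma adjusted p = 0.000342). PGAM5, a mitochondrial phosphatase, rose 1.36-fold and TOLLIP, a ubiquitin-binding adaptor, 1.19-fold (limma adjusted p = 7.81e-05 and 0.00584). BCL2L13, a mitochondrial receptor, was 1.09-fold higher (limma adjusted p = 0.0338), a call lost without siPGC1a replicate 1 (0.0637) or 3 (0.0778), without siNC replicate 1 (0.0524), 2 (0.088) or 3 (0.13), on the TPM scale (0.0866) and under quantile scaling (0.156), in a range of 0.016 to 0.156.

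Fusion genes gave 2 rises, 2 falls and 11 that did not pass. RAB7A, the GTPase of late endosomes, was at 201 ± 4.66 FPKM in siPGC1a and 173 ± 1.58 FPKM in siNC libraries, and the SNARE gene YKT6 was 1.17-fold higher (n = 3 each, limma adjusted p = 0.000708 and 0.00101). VPS41 of the HOPS tether and the SNARE gene STX7 fell to ratios of 0.817 and 0.661 (limma adjusted p = 0.000469 and 0.000739). Of mTORC1 and nutrient sensing genes 7 rose, 5 fell and 15 did not pass. The sestrins, which restrain mTORC1, parted: SESN2 and SESN1 rose 1.33-fold and 1.27-fold, and SESN3 fell to 17.2 ± 1.61 FPKM in siPGC1a, against 29.1 ± 1.5 FPKM in siNC libraries (SD, n = 3 each, limma adjusted p = 0.000175, 0.0027 and 2.71e-05). RRAGD, a Rag GTPase, rose 1.32-fold, while FNIP2, a folliculin partner, and DDIT4, an mTORC1 inhibitor, fell to ratios of 0.781 and 0.889 (limma adjusted p = 0.000751, 0.0011 and 0.00861).

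Of the transcription factors known to act on autophagy genes 2 rose (15.4%), 6 fell (46.2%) and 5 did not pass. With 13 genes and no test of the list, nothing particular to it is drawn from these shares. FOXO3 fell to 4.04 ± 0.171 FPKM in siPGC1a, against 6.17 ± 0.152 FPKM in siNC libraries (SD, n = 3 each, limma adjusted p = 3.37e-05). MITF was at a ratio of 0.762 and NFE2L2, which encodes NRF2, at 0.802 (limma adjusted p = 0.000335 and 0.000368). E2F1 rose 1.63-fold and TFE3, a relative of TFEB, was higher by 0.22 on the log2 scale (limma adjusted p = 1e-05 and 0.00163).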

How the data were processed

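The deposited values were FPKM, computed by the authors per gene symbol and library. STAR, Picard, featureCounts and DESeq2, on hg19, are named per the submitters' processing notes, with no role or version. The sources used here give no strand setting. Per the labels' protocols, stranded mRNA libraries were read as single 50-base reads.

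Genes with a mean of at least 1 FPKM (PPARGC1A regardless) were tested on log2(FPKM + 1), which understates changes of low genes, by limma-trend (limma 3.58.1 under R 4.3.3), two-sided and without a replicate block. The script was tested on simulated data. Reads were derived from FPKM steps of short miRNA genes and GENCODE v29 exon lengths. Within 0.1 read, 96.7 to 100% of those values were whole. Libraries of a group differed beyond sampling noise (chi-square per degree of freedom 2.02 to 6.26).

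Members and lists were chosen with earlier results of these data known. Library values are given for the 14 members with the smallest adjusted p, called members of at least 1.25-fold, the ATG8 family and SQSTM1, and up to 3 genes per pathway list and direction are named. A 3' UTR is the longest among APPRIS principal transcripts of a gene, or among its basic coding transcripts where none is tagged. Overlaps with other genes come from GENCODE v29. Alternatives were a pseudocount of 0.1, no filter, a filter of 5 FPKM, 3 scalings, the replicate block and leaving out each library. One marker gene and 1 site are not reported here.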

Additional observations from a re-analysis of the deposited data

How the results depend on the processing

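Of the 16 members called, 9 kept their call and direction in every alternative that tested them (ATG101, SQSTM1, BECN1, ATG16L1, VMP1, UVRAG, TAX1BP1, ATG4D and TP53INP2), and the other 7 lost it in at least 1 of 13 settings. The matching share of all called genes is not given here, so these counts are no result about the members as a class. UVRAG, ATG12, ULK2, ATG10, ATG2A and ATG7 fell below the filter of 5 FPKM and were not tested there. Of the 23 members not called, 4 gained a call in a setting and 19 did not. The count of members called higher was 6 to 10 over all settings. That of members called lower was 4 with no filter and 3 to 5 with a library left out. The members' median log2 fold change was 0.078 at a filter of 5 FPKM, 0.081 under median-of-ratios scaling, 0.039 on the TPM scale, 0.023 under quantile normalization and 0.047 to 0.063 with a library left out.

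Whether replicate numbers pair the libraries is not settled. Same-numbered libraries correlated at 0.077, 0.261 and -0.058 in their deviations from group means, and not every library correlated best with its own number. With 3 libraries in a group, such correlations are too few to decide it. With the replicate block 6079 genes were called in all, against 5782 without it. There 9 members were higher and 6 lower, with ULK2 (limma adjusted p = 0.0533) no longer called.

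Members near 0 that were not called changed sign. Under median-of-ratios scaling RB1CC1 was at 0.011, ATG2A at 0.016 and ATG7 at 0.002. Under quantile normalization ATG2A was at 0.009, ATG7 at 0.04 and MAP1LC3B at -0.026, and on the TPM scale MAP1LC3B was at -0.003. With a library left out, RB1CC1 ranged over -0.045 to 0.051, ATG2A over -0.05 to 0.047, ATG7 over -0.046 to 0.018, MAP1LC3B over -0.009 to 0.053, OPTN over -0.044 to 0.02 and ATG4C over -0.16 to 0.028. Reads counted without molecular identifiers are not independent molecules, and depth limits ATG10 and MAP1LC3A most.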

Other observations

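Some genes of close function went opposite ways in siPGC1a libraries; the pairs were picked after the values were seen. Mean FPKM in siPGC1a over siNC libraries was 1.2 for VMP1 and 0.609 for its scramblase partner TMEM41B. It was, in the order named, 1.46 and 0.759 for the receptors SQSTM1 and TAX1BP1, 1.32 and 0.881 for the ligase components ATG16L1 and ATG12, 1.13 and 0.683 for the proteases ATG4B and ATG4D, and 1.33 and 0.59 for the sestrins SESN2 and SESN3. The calls of ATG12 and ATG4B were lost in some settings, and ATG4D is uncertain while the strand setting is not known. Other close genes, such as BNIP3 and BNIP3L, moved together. With 25.6% of all genes called higher and 22.5% lower, opposite moves in picked pairs are no result about these genes. Within a library, ATG16L1 stood at 2.66, 2.73 and 2.79 times the FPKM of ATG12 in siPGC1a and at 1.93, 1.81 and 1.73 times in siNC libraries, and BECN1 at 3.35, 3.38 and 3.26 times that of PIK3C3 in siPGC1a and 2.78, 2.75 and 2.82 times in siNC libraries. These ratios do not depend on how libraries are scaled to each other. The ratio of BECN1 to PIK3C3 carries the doubt about the value of BECN1.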
